A study of Mus musculus with 10 samples.

Results

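The transcripts of the 5 NF-κB subunits and 5 inhibitor or IκB-like proteins were followed in RAW264.7 cells, a mouse macrophage line, treated with compound **1**, an unsaturated keto fatty acid, before stimulation with lipopolysaccharide (LPS). The 10 genes were Nfkb1, Nfkb2, Rela, Relb, Rel, Nfkbia, Nfkbib, Nfkbie, Nfkbiz and Bcl3, chosen by name and found through their Ensembl identifiers among 43432 genes in the table of counts. Each of the 5 conditions had 2 libraries. These were DMSO without LPS, DMSO + LPS, and **1** at 32, 10 or 3.2 µM with LPS. The solvent control was 0.5% DMSO. Pretreatment with solvent or **1** lasted 1 h, after which the LPS conditions received LPS at 1 µg/mL, with RNA collected after 12 h. A single cell line and time point were measured. Nothing in the labels says that the 2 libraries of a condition came from separate cultures, so the tests measure the spread between these libraries, which may be technical. No condition held **1** without LPS.

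NF-κB proteins are dimers that IκB proteins hold in the cytoplasm of resting cells. LPS acts through Toll-like receptor 4 and the IκB kinases, which mark the IκB proteins for degradation and free the dimers to enter the nucleus. Several subunit and inhibitor genes are themselves NF-κB targets, so the pathway writes part of its own feedback. In macrophages this system drives much of the early inflammatory response. Transcript counts do not report the protein levels, the degradation of IκB or the location of the subunits.

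The 10 libraries held between 45966803 and 58976377 counts. All 10 genes were among the 14172 that passed the filter on low counts, and their lowest count in any library was 334, for Nfkbiz in DMSO, a counting error of 5.47%. Levels are given as CPM, in which the counts of each library are scaled to the same total after TMM normalization. A call required a difference of 1.5-fold or more and an adjusted p below 0.05, from edgeR's quasi-likelihood test on all 10 libraries with Benjamini-Hochberg adjustment over all genes tested. The smallest p that exact permutation allows for 2 libraries against 2 is 0.333, so the test borrows its spread from all conditions and genes. The 7 macrophage markers examined (Adgre1, Cd68, Itgam, Csf1r, Lyz2, Cd14 and Fcgr1) were present in every library, at a summed level of 7283 to 11325 CPM, and T and B cell markers were at or near 0. Replicate 1 at 10 µM also held counts of epithelial markers (Krt8, Epcam and Cdh1, summed 36.3 CPM) and 2.94 CPM of fibroblast markers. Replicate 1 at 3.2 µM held 5.52 CPM of the epithelial markers, and the other libraries at most 0.0680 CPM. Replicate 2 at 32 µM stood apart in Gm42418, a gene annotated over ribosomal RNA sequence, at 2.46% of its counts against at most 0.207% elsewhere. Results at these doses are therefore given with and without these libraries where that changed an adjusted p across the cutoff.

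LPS raised 9 of the 10 genes past both cutoffs after 12 h, and the tenth, Rela, rose by less than 1.5-fold. Over all genes tested, 14.6% were called higher with LPS. The median log2 fold change was 1.85 over the 10 genes and 0.0026 over all genes. At the adjusted p alone all 10 genes were higher, where the background was 25.2% of genes. The calls held under all 18 alternative settings. Scaling by library totals alone shifted the median of all genes by -0.20 on the log2 scale, and Rela then had an adjusted p of 0.0612 with a log2 fold change of 0.14. The plot of levels by library shows each gene in all 5 conditions.

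**Figure D1:**
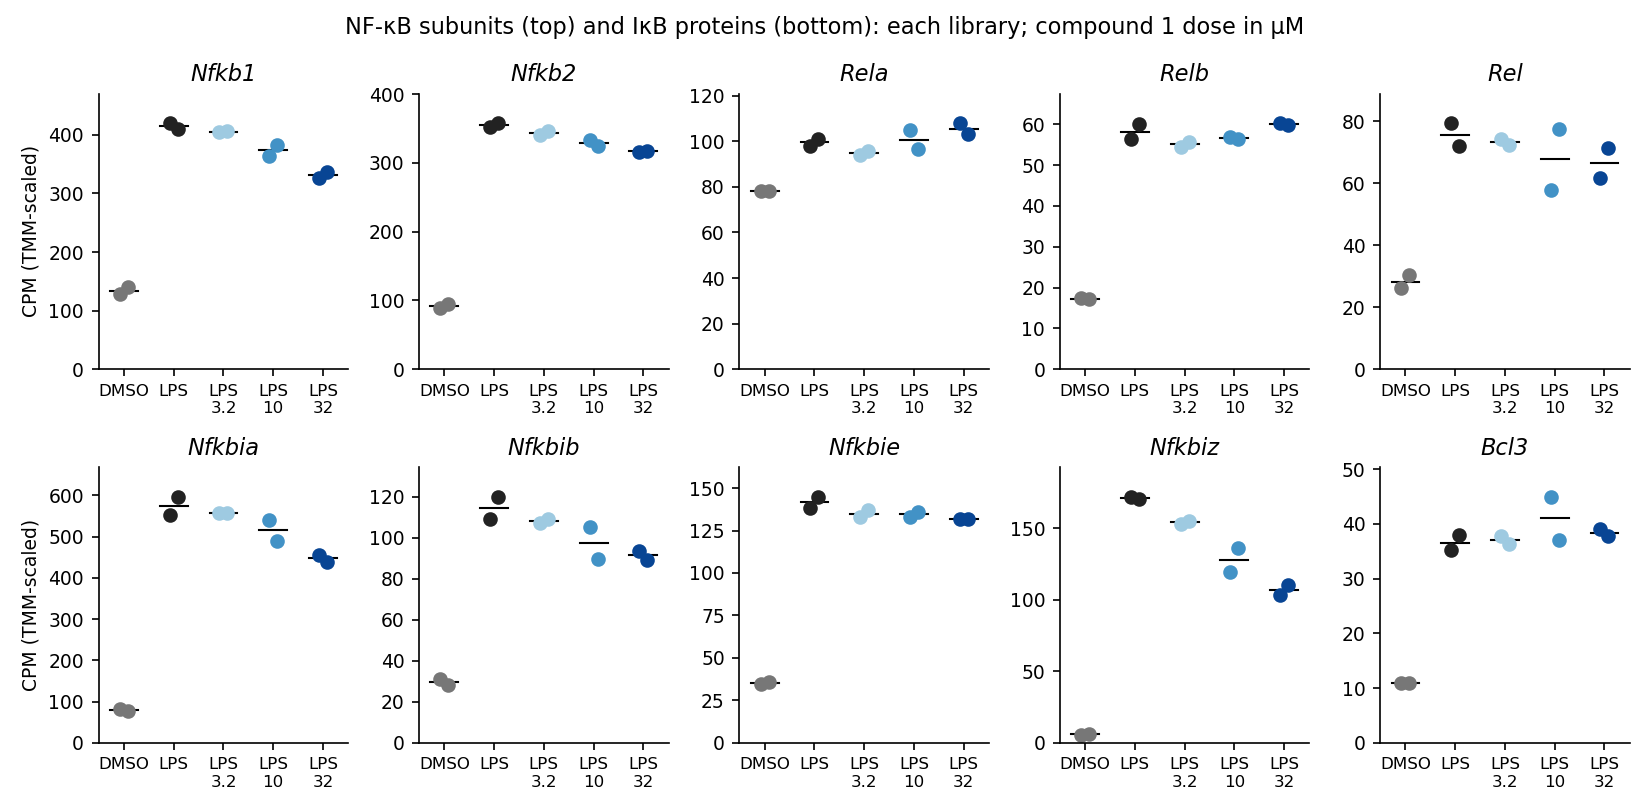
Level of each gene in CPM (vertical axes start at 0) in DMSO, in DMSO + LPS (LPS), and with 3.2, 10 or 32 µM of **1** and LPS. Points are the 2 libraries and bars their mean. Nfkbiz stood at 5.68 and 6.41 CPM without LPS and at 172 and 170 CPM with it, and at 103 and 110 CPM at 32 µM.

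Among the 5 subunits, Rela encodes p65, the transactivating partner of the main LPS-induced dimer. It measured 78.3 and 78.2 CPM in DMSO and 98.0 and 101 CPM in DMSO + LPS. The groups did not overlap, yet the rise was the smallest of the 10, at 1.27-fold (log2 fold change 0.35, SE 0.0509, adjusted p = 6.78e-04). Nfkb1 encodes p105, which is processed to p50, the usual partner of p65. It rose from 128 and 140 CPM to 420 and 409 CPM, a 3.09-fold change (log2 fold change 1.63, SE 0.0568, adjusted p = 1.68e-07). Nfkb2 encodes p100, the precursor of p52 and an inhibitor in its own right. It rose from 89.0 and 94.3 CPM to 352 and 358 CPM, or 3.88-fold (adjusted p = 2.06e-08).

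Relb, the partner of p52 in the noncanonical pathway, went from 17.4 and 17.1 CPM to 56.3 and 60.1 CPM, or 3.37-fold (adjusted p = 5.65e-08). Rel encodes c-Rel, a transactivating subunit found mostly in blood cells. It went from 26.1 and 30.4 CPM to 79.4 and 71.9 CPM, or 2.68-fold (adjusted p = 8.58e-05). The 2 libraries of a condition lay farther apart for Rel than for most of the other genes, by 16.5% in DMSO and 34.5% at 10 µM, and its SE of 0.147 was the largest of the 10 in this comparison.

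The inhibitors spanned a wider range. Nfkbia encodes IκBα, the inhibitor that is rapidly degraded and then resynthesized after LPS. It rose from 81.6 and 76.6 CPM to 553 and 597 CPM, which was 7.27-fold (log2 fold change 2.86, SE 0.0691, adjusted p = 2.35e-08). Nfkbib, the gene of IκBβ, rose from 31.0 and 28.3 CPM to 109 and 120 CPM, or 3.86-fold (adjusted p = 7.11e-07). Nfkbie, the gene of IκBε, rose from 34.4 and 35.8 CPM to 138 and 145 CPM, or 4.02-fold (adjusted p = 2.00e-08). The classical inhibitors thus differed in the size of their rise, with Nfkbia above the other 2 and intervals that did not meet (2.70 to 3.02 on the log2 scale for Nfkbia, 1.74 to 2.15 for Nfkbib and 1.90 to 2.11 for Nfkbie).

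Nfkbiz encodes IκBζ, a nuclear IκB-like protein that acts with p50 to switch on secondary response genes. It had the largest rise of the 10, from 5.68 and 6.41 CPM to 172 and 170 CPM, or 28.3-fold (log2 fold change 4.82, SE 0.0919, adjusted p = 7.78e-09). Bcl3 encodes a nuclear IκB-like protein that binds p50 and p52 homodimers. It rose from 11 CPM in both libraries to 35.2 and 38.0 CPM, or 3.32-fold (adjusted p = 1.97e-06). Within a library, the ratio of Nfkbiz to Bcl3 counts went from 0.515 and 0.581 in DMSO to 4.89 and 4.46 in DMSO + LPS.

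Promoter windows show which of these genes carry an NF-κB-type sequence at their start, and the first window of each gene with one is printed in part here. The windows, 250 bases before to 50 bases after the annotated start, come from RefSeq on GRCm38.p6 and were found for 7 of the 10 genes, with no entry for Nfkb1, Relb or Nfkbiz. The 10-base motif searched was 3 G, a purine, 2 bases of any kind, 2 pyrimidines and 2 C, on both strands and with overlapping matches counted. Of the 7 genes, 5 held at least 1 match, and Rela and Nfkbib held none. Over all promoter windows of this length 8.46% held a match, as did 9.55% of genes with any window. A match describes the letters only and is neither a measured site nor a cause of a change. Below, 120 bases before to 20 bases after the start are given 5′ to 3′ on the strand of the gene, with the matches in capitals, which merge where matches overlap in Nfkb2 and Rel.
Nfkb2 promoter, chr19:46304617-46304756, plus strand: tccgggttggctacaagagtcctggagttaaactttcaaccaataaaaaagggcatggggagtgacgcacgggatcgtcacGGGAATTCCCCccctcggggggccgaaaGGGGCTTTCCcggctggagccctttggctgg
Rel promoter, chr11:23770950-23771089, minus strand: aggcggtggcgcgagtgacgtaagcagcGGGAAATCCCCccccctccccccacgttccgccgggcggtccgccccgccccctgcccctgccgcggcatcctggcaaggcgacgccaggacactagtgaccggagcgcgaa
Nfkbia promoter, chr12:55492628-55492767, minus strand: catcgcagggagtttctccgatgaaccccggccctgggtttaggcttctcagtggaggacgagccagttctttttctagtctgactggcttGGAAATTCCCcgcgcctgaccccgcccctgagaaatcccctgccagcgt
Nfkbie promoter, chr17:45555580-45555719, plus strand: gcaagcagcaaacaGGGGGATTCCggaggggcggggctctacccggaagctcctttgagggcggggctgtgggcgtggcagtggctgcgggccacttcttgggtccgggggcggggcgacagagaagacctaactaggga
Bcl3 promoter, chr7:19822736-19822875, minus strand: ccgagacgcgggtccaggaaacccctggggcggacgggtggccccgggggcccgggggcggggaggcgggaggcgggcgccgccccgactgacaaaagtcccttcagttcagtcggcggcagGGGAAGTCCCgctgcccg

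The window shown for Nfkb2 is the first of 3, with matches that start 39, 38 and 11 bases before the annotated start. The second window, not printed, holds matches that start 236 bases before and 10 bases past its own start. The third, which overlaps it, holds the latter match again, 225 bases before its own start. The matches of Nfkbia and Nfkbie start 29 and 106 bases before the annotated start, and that of Rel 92 bases before it, with a second 1 base further on. The match of Bcl3 lies 2 bases past the start. In the data above, the 5 genes with a match rose between 2.68-fold (Rel) and 7.27-fold (Nfkbia) with LPS, and the 2 without one rose 1.27-fold (Rela) and 3.86-fold (Nfkbib). These ranges overlap, and no test was made over so few genes.

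Gene positions follow GENCODE M21 (GRCm38). Rela (chr19:5637483-5648130, plus strand) and Nfkb2 (chr19:46304320-46312385, plus strand) share a chromosome. Relb (chr7:19606217-19629438), Bcl3 (chr7:19808462-19822770) and Nfkbib (chr7:28758251-28767512) all lie on the minus strand of chromosome 7. Nfkb1 (chr3:135584655-135691547), Rel (chr11:23736847-23770970), Nfkbia (chr12:55489410-55492647) and Nfkbiz (chr16:55811375-55838899) are also on the minus strand, and Nfkbie (chr17:45555703-45563169) is on the plus strand. All 10 are annotated as protein-coding. Exons of Nfkb2 overlap 299 bp of Psd and 531 bp of AC114539.1 on the opposite strand, the latter without counts here, those of Nfkbib 42 bp of Sirt2 and 314 bp of Ccer2, and those of Bcl3 161 bp of Gm16175. The kit kept the strand, but whether counting used it is not given in the sources used here. Over all libraries Psd held 11944 counts against 140625 for Nfkb2, and Sirt2 29993 against 43274 for Nfkbib.

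Levels can be set side by side between genes only per length, and were expressed as CPM per kb of the gene's merged exons. In DMSO the order of the level per kb was Nfkbia (49.1 ± 2.18, SD, n = 2), Rela (25.5 ± 0.0140), Nfkb2 (19.4 and 20.6), Nfkbib (13.7 ± 0.859), Nfkbie (11.5 ± 0.321), Nfkb1 (11.1 ± 0.729), Relb (4.45 ± 0.0491), Bcl3 (4.45 ± 0.00298), Rel (3.78 ± 0.408) and Nfkbiz (1.20 ± 0.103). Neighbors Nfkbie and Nfkb1, and Relb and Bcl3, did not differ beyond their spread. Nfkbia, the gene of the main inhibitor, was thus the most abundant of the 10 transcripts before stimulation, and Rela the most abundant subunit transcript on this scale. Per kb of the longest transcript Nfkb1 stood above Rela in DMSO, at 32.4 ± 2.12 against 28.8 ± 0.0158.

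After LPS, Nfkbia still led at 357 ± 19.4 CPM per kb (SD, n = 2) and Nfkb2 followed at 77.5 ± 0.818. Then came Nfkbib (52.8 ± 3.50), Nfkbie (46.3 ± 1.63), Nfkb1 (34.4 ± 0.621), Nfkbiz (34.0 ± 0.319), Rela (32.4 ± 0.682), Relb (15.0 ± 0.701), Bcl3 (14.8 ± 0.812) and Rel (10.1 ± 0.710). On the scale of merged exons Nfkbiz thus moved from the lowest place to a level not distinguishable from that of Nfkb1. Relb and Bcl3 remained a pair that did not differ beyond their spread. The place of Nfkb1 depended on the length used, because its merged exons span 12061 bp and its longest transcript 4149 bp. Per kb of the longest transcript it stood at 100 ± 1.81 in DMSO + LPS, above Nfkb2 at 92.3 ± 0.974 and Nfkbiz at 41.5 ± 0.389.

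The makeup of the subunit transcripts differed between DMSO and DMSO + LPS. Of the CPM per kb summed over the 5 subunits, Rela held 40.2% and 38.5% in DMSO and 18.9% and 19.3% in DMSO + LPS. The share of Nfkb2 rose from 30.6% and 31.1% to 45.6% and 45.9%. Per kb of the longest transcript the share of Rela went from 31.5% and 29.9% to 14.0% and 14.5%, so the fall of its share did not depend on the length chosen, whereas Nfkb1 rather than Nfkb2 then held the largest share in DMSO + LPS, at 39.4% and 38.4%. Without a length, the count of Nfkbia in each library was 1.04 and 0.979 times that of Rela in DMSO and 5.64 and 5.91 times in DMSO + LPS.

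With **1** at 32 µM, Nfkbiz was the 1 gene of the 10 called against DMSO + LPS, and 0 of the 10 were called higher by edgeR or DESeq2 or were higher at an unadjusted p below 0.05. The background was 2.91% of genes called lower and 1.27% called higher. At the adjusted p alone 3 of the 10 were lower (Nfkb1, Nfkbia and Nfkbiz), against 5.72% of all genes. In all, 7 genes had a negative and 3 a positive fold change, with a median log2 fold change of -0.18 over the 10 genes and 0.0082 over all genes. DESeq2 also called 1 of the 10, among 583 genes that it called in all. It gave 5 of the 10 an adjusted p below 0.05, which added Nfkb2 and Nfkbib. No share over all genes at that DESeq2 cutoff is given here. The summed level of the macrophage markers was 9564 and 9655 CPM in DMSO + LPS and 7663 and 7283 CPM at 32 µM, and its part in these values was not tested. Most of this sum was Lyz2 and Cd14. Of the other markers, Csf1r was at a higher level at 32 µM (1095 and 1047 CPM against 822 and 805 CPM), Cd68 overlapped its controls (688 and 606 CPM against 610 and 601 CPM), and Adgre1, Itgam and Fcgr1 were at lower levels. In bulk RNA, a change in transcripts per cell and a change in the share of cells that carry them cannot be told apart.

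Nfkbiz measured 172 and 170 CPM in DMSO + LPS and 103 and 110 CPM at 32 µM. Both treated libraries lay below both controls, 37.6% lower by the fit (log2 fold change -0.68, SE 0.0763, 95% interval -0.86 to -0.50, adjusted p = 9.41e-04). The call held in all 18 alternatives, in which the log2 fold change lay between -0.72 and -0.64 and the adjusted p between 1.48e-13 and 0.0137. Without replicate 2 at 32 µM, the library rich in Gm42418, it was -0.72 with an adjusted p of 0.00655. At 32 µM it was still at 17.6 times the level in DMSO.

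Nfkb1 measured 420 and 409 CPM in DMSO + LPS and 327 and 336 CPM at 32 µM, 20.1% lower (log2 fold change -0.32, 95% interval -0.45 to -0.20, adjusted p = 0.00805). Nfkbia went from 553 and 597 CPM to 456 and 439 CPM, 22.2% lower (log2 fold change -0.36, 95% interval -0.51 to -0.21, adjusted p = 0.00978). For both genes the groups did not overlap, but the change was under 1.5-fold. With fewer libraries these adjusted p did not all stay below 0.05, while the log2 fold changes stayed between -0.35 and -0.30 for Nfkb1 and between -0.42 and -0.31 for Nfkbia. The adjusted p of Nfkb1 rose to 0.0618 without replicate 1 at 32 µM and to 0.0809 or 0.0530 without replicate 1 or 2 of DMSO + LPS. For Nfkbia it rose to 0.0685 without replicate 2 at 32 µM and to 0.0868 without replicate 2 of DMSO + LPS.

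Nfkbib and Nfkb2 lay just beyond the cutoff on p. Nfkbib measured 93.5 and 89.1 CPM at 32 µM against 109 and 120 CPM, 20.2% lower (95% interval of the log2 fold change -0.52 to -0.13, adjusted p = 0.0533), and passed in 9 of 18 alternatives. Its adjusted p was 0.0176 without replicate 1 at 10 µM, the library with epithelial markers, and 0.0490 without replicate 1 at 3.2 µM as well. Nfkb2 measured 316 and 318 CPM against 352 and 358 CPM, 10.8% lower (95% interval -0.27 to -0.06, adjusted p = 0.0586), and passed in 5 of 18. Both are therefore undecided at this number of libraries.

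The other 5 genes had log2 fold changes between -0.19 and 0.08 at 32 µM. Rela, at 108 and 103 CPM against 98.0 and 101 CPM, lay above its controls in both libraries without passing the test (95% interval -0.04 to 0.20, adjusted p = 0.429). Relb, at 60.3 and 59.7 CPM against 56.3 and 60.1 CPM, overlapped them (95% interval -0.07 to 0.15, adjusted p = 0.715). Bcl3 overlapped its controls as well, at 39.1 and 37.7 CPM against 35.2 and 38.0 CPM (95% interval -0.14 to 0.28, adjusted p = 0.766). The intervals of Rela, Relb and Bcl3 leave out a change of 1.5-fold in either direction, as do those of the rest except Nfkbiz.

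Nfkbie measured 132 CPM in both libraries at 32 µM against 138 and 145 CPM (95% interval -0.20 to 0.00, adjusted p = 0.245). Rel measured 61.6 and 71.3 CPM against 79.4 and 71.9 CPM. Its replicate spread left a wide interval of -0.52 to 0.15 (adjusted p = 0.543), so a moderate fall or a small rise of c-Rel transcripts was not detectable with 2 libraries. The plot of fold changes gives all intervals.

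**Figure D2:**
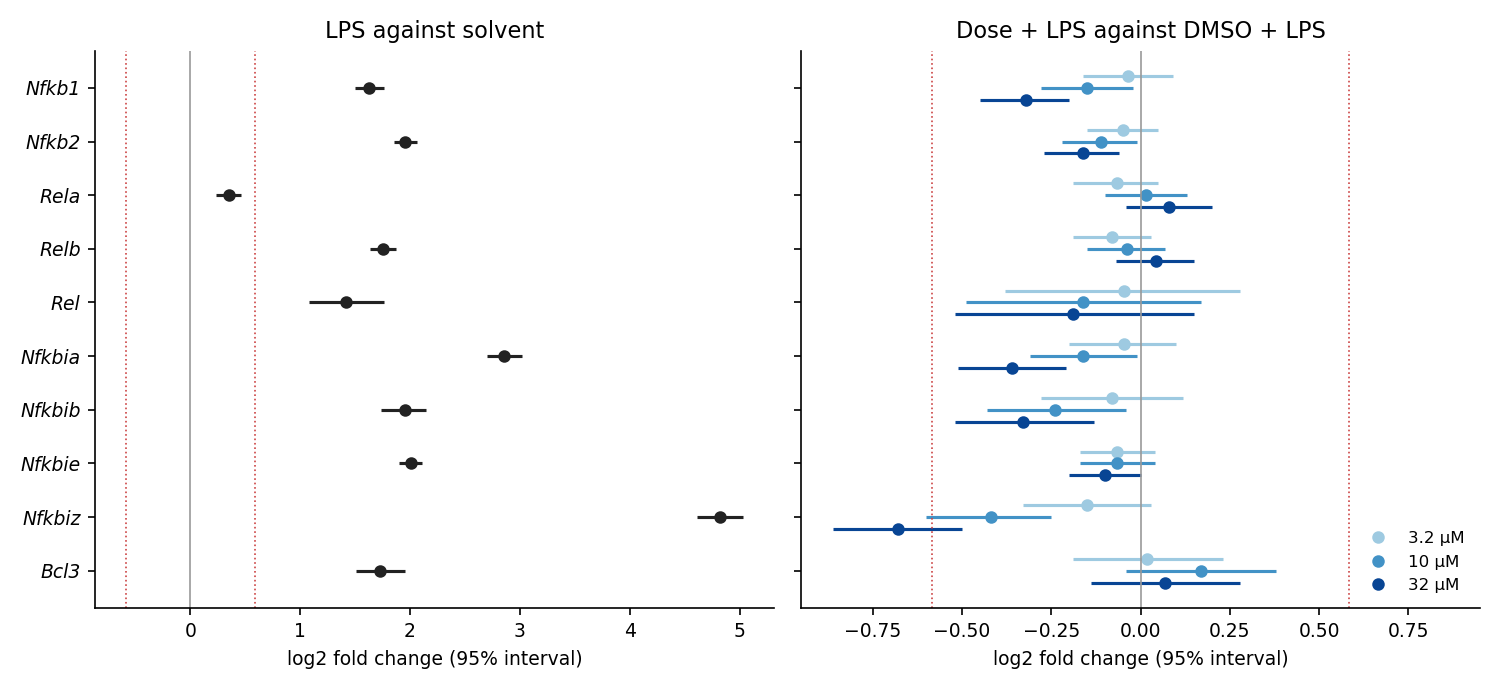
Log2 fold change of each gene with its 95% interval from the edgeR fit, on the left for DMSO + LPS against DMSO and on the right for 3.2, 10 and 32 µM of **1** with LPS, each set against DMSO + LPS. The dotted lines mark 1.5-fold. On the left all 10 points lie above 0 and only Rela lies within the dotted lines, and on the right only the 32 µM point of Nfkbiz lies outside them.

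At 10 µM edgeR called 0 of the 10 in either direction (0.861% of all genes were called), and DESeq2 called 0. At an unadjusted p below 0.05, 5 of the 10 passed, against 12.1% of all genes. At the adjusted p alone Nfkbiz was lower, against 1.70% of all genes. It measured 119 and 136 CPM, 25.5% lower than in DMSO + LPS (log2 fold change -0.42, 95% interval -0.60 to -0.25, adjusted p = 0.0294). Without replicate 1 at 10 µM, the library with epithelial markers, the log2 fold change was -0.33 with an adjusted p of 0.0909. Without replicate 1 at 3.2 µM as well, that p was 0.251. The adjusted p of Nfkbiz was also above 0.05 without either DMSO + LPS library (0.229 and 0.204) and without either 3.2 µM library (0.0892 and 0.0900), and was 0.181 on the 4 libraries compared.

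The 2 libraries at 10 µM lay apart for several other genes. Bcl3 stood at 45.0 CPM in replicate 1 and 37.1 CPM in replicate 2, and Rel at 57.7 and 77.6 CPM. Nfkbib differed as well, at 105 and 89.4 CPM. Without replicate 1 the log2 fold change of Bcl3 was 0.02 and that of Rel 0.04, against 0.17 and -0.16 with it, and that of Nfkbib was -0.36 against -0.24. None passed the test with or without it. The source of the epithelial marker counts in replicate 1, and its part in these values, was not tested.

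For Nfkb1, the libraries at 10 µM stood at 364 and 383 CPM, between those at 32 µM and those of DMSO + LPS (adjusted p = 0.305 against DMSO + LPS). Nfkbia did the same, at 541 and 490 CPM (adjusted p = 0.385). Over the 10 genes the median log2 fold change was -0.13 at 10 µM, against 0.0159 over all genes.

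At 3.2 µM edgeR called 0 of 14172 genes, which is 0% and includes the 10 described here. Among the 10, 0 had an unadjusted p below 0.05 and DESeq2 called 0. Over all genes 600 had an unadjusted p below 0.05 and DESeq2 called 1. The lowest log2 fold change was that of Nfkbiz, at -0.15 (153 and 155 CPM, 95% interval -0.33 to 0.03, adjusted p = 0.999). Both of its libraries lay below both controls. Every interval at this dose left out a 1.5-fold change in either direction. On the 4 libraries compared alone, the adjusted p of Nfkbiz was 0.0364.

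Direct tests between doses called none of the 10 genes. Between 32 and 10 µM, where 1.32% of all genes were called, 3 of the 10 had an unadjusted p below 0.05, against 12.5% of all genes, and all 3 were lower at 32 µM. These were Nfkbiz (log2 fold change -0.26, adjusted p = 0.190), Nfkbia (-0.21, adjusted p = 0.215) and Nfkb1 (-0.17, adjusted p = 0.229). Between 10 and 3.2 µM, where 0.254% of all genes were called, 1 of the 10 had an unadjusted p below 0.05, against 8.38% of all genes. It was Nfkbiz (-0.27, adjusted p = 0.248). DESeq2 called 0 in both comparisons, and gave Nfkbiz an adjusted p of 0.0483 between 10 and 3.2 µM, under the fold cutoff. For Nfkbiz the libraries stood in order of dose without overlap, from 153 and 155 CPM at 3.2 µM through 119 and 136 CPM to 103 and 110 CPM.

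The size of the change at each dose can be read against the rise that LPS gave. The CPM above the DMSO mean was divided by the same difference in DMSO + LPS, so that 100% means the full LPS level. At 32 µM Nfkbiz kept 59.1% and 63.0% of its rise in the 2 libraries. Nfkb1 kept 68.6% and 72.1%, Nfkbib 75.3% and 70.1%, and Nfkbia 75.9% and 72.5%. The next were Nfkb2 at 85.2% and 85.7%, Nfkbie at 91.1% in both, and Rel at 70.5% and 90.9%. Relb (105% and 104%) and Bcl3 (110% and 104%) kept the whole rise. Rela is poorly placed on this scale because its LPS rise was only 21.2 CPM, and its libraries gave 138% and 116%.

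**Figure D3:**
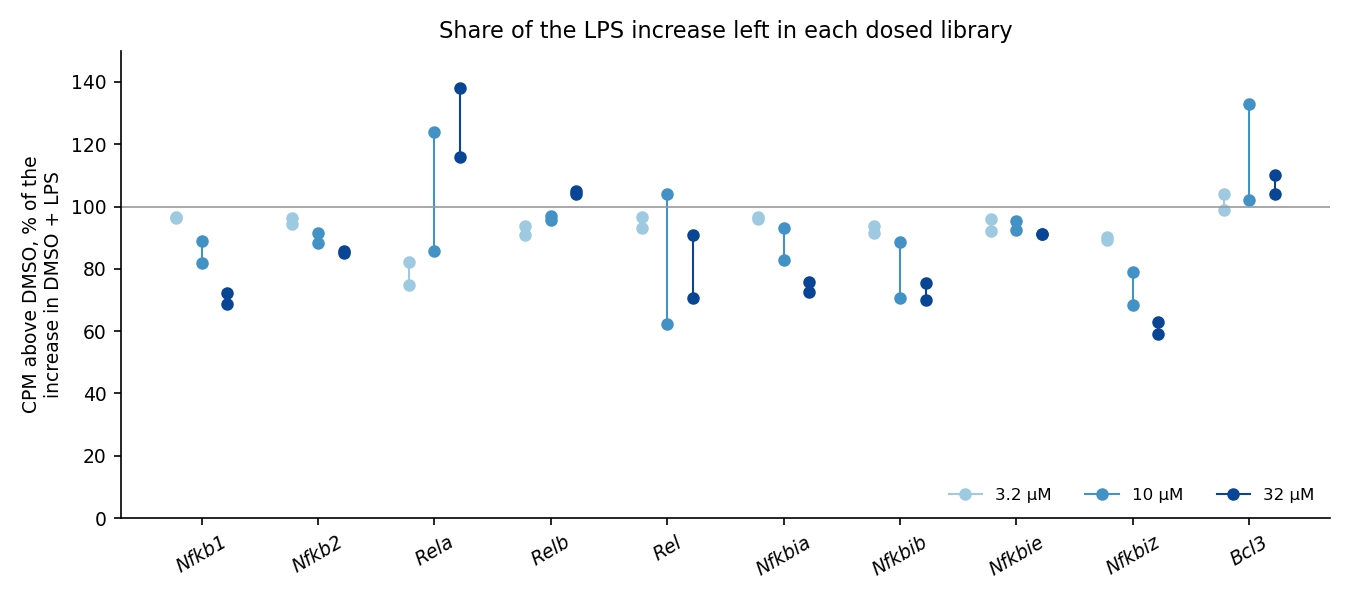
Share of the LPS rise left in each library (vertical axis, % of the mean DMSO + LPS minus DMSO difference in CPM, linked pairs of points are the 2 libraries of a dose). At 32 µM Nfkbiz lies lowest, at 59.1% and 63.0%, and Relb, Bcl3 and Rela lie above 100%.

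Compared with DMSO without LPS, the 32 µM cells still had 9 of the 10 genes called higher (13.9% of all genes were called higher). Fold changes over DMSO ranged from 2.36 for Rel to 17.6 for Nfkbiz among these 9, and Rela was 1.34-fold higher (adjusted p = 2.10e-04). This comparison shares libraries with the others, so the values stand side by side and are not independent.

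Ratios within a library need no scaling between libraries. Nfkbia to Rela, an inhibitor against the main transactivating subunit, stood at 5.64 and 5.91 in DMSO + LPS. With **1** it was 5.90 and 5.83 at the lowest dose, 5.18 and 5.08 at the middle dose and 4.24 and 4.27 at the highest. Nfkb1 to Rela stood at 4.29 and 4.06 in DMSO + LPS and at 3.04 and 3.27 at 32 µM. In both ratios the 32 µM libraries lay below every other LPS library. The ratio of Nfkb2 to Relb, the noncanonical pair, went from 6.26 and 5.95 to 5.25 and 5.32. Nfkbiz to Bcl3 went from 4.89 and 4.46 to 2.64 and 2.92, and at 10 µM its 2 libraries gave 2.63 and 3.67. Among the classical inhibitors, Nfkbia to Nfkbib was 5.07 and 4.98 in DMSO + LPS and 4.87 and 4.92 at 32 µM, and Nfkbia to Nfkbie went from 4.02 and 4.13 to 3.46 and 3.33.

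**Figure D4:**
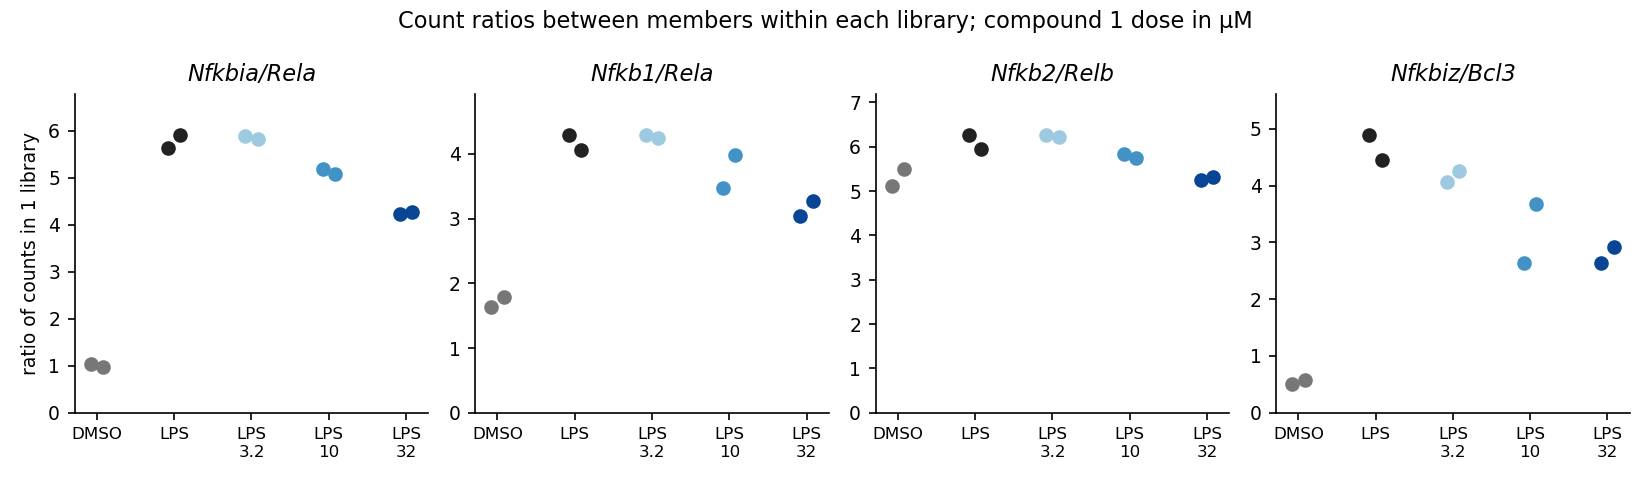
Ratio of the counts of a pair of genes within 1 library (vertical axes start at 0) in each condition, with doses of **1** in µM and points for the 2 libraries. Nfkbia/Rela and Nfkb1/Rela rise with LPS and are lower at 32 µM, at 4.24 and 4.27 and at 3.04 and 3.27, and at 10 µM the libraries of Nfkbiz/Bcl3 lie apart, at 2.63 and 3.67.

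Around the 10 genes, 36 other genes of the pathway that are not listed as targets were tested. With LPS 11 of them were called higher, against 14.6% of all genes, and 0 were called lower by edgeR or DESeq2, against 13.6% of all genes. At an unadjusted p below 0.05, 20 of the 36 were higher and 7 lower, where 7964 of the 14172 genes tested passed in either direction. The median of the 36 log2 fold changes was 0.25. The highest dose gave 2 calls, both lower, by edgeR and also by DESeq2, which is read against the 2.91% of all genes called lower. At an unadjusted p below 0.05, 17 of the 36 passed, 6 higher and 11 lower, against 22.2% of all genes in either direction. At 10 and 3.2 µM both tools made 0 calls, where 5 and 2 genes had an unadjusted p below 0.05. Over all genes this held for 12.1% at 10 µM and for 600 of the 14172 tested at 3.2 µM. By group, the calls at 32 µM were 1 of 6 kinases, 1 of 5 deubiquitinases and partners, and 0 of 13 adaptors and ubiquitin ligases, 5 genes of NIK degradation, 5 of the IκB ubiquitin ligase and 2 other IκB-like genes.

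The 2 called lower at 32 µM were Ikbke and Tnfaip3. Ikbke, an IκB kinase-related kinase that LPS induces, rose from 4.17 and 5.57 CPM to 69.3 and 63.8 CPM and stood at 42.2 and 40.3 CPM at 32 µM (log2 fold change -0.69, SE 0.106, adjusted p = 0.00489). Tnfaip3 encodes A20, a ubiquitin-editing enzyme that limits NF-κB signaling, and rose from 6.96 and 7.45 CPM to 115 and 110 CPM and stood at 72.9 and 76.3 CPM at 32 µM (log2 fold change -0.59, SE 0.0518, adjusted p = 2.39e-04). Its change was close to 1.5-fold and fell under it, at 1.47-fold, without replicate 1 of DMSO + LPS or replicate 1 at 32 µM, and with library totals alone its log2 fold change was -0.58, also under the cutoff. Without replicate 1 of DMSO + LPS the adjusted p of Ikbke was 0.0562.

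Target genes of NF-κB, a list written from general knowledge with earlier results of these data known, were counted in the same way. The paper already reports Ccl2, Nos2, Il6, Il1b, Ccl4 and Bcl2l1 as lowered by **1** in these data. The counts therefore describe this list and are no independent evidence. LPS raised 20 of the 21 past the cutoffs, against 14.6% of all genes called higher. The 3 with the largest fitted change were Il6 (0 counts in both DMSO libraries, 5420 and 4648 in DMSO + LPS), Csf3 (4 and 1 counts, then 69433 and 59610) and Il1a (1 count in each, then 23019 and 18458). No fold change is given for them because the counts in DMSO were at or near 0. At 32 µM 13 of 21 were called lower and 0 higher by either tool, against 2.91% and 1.27% of all genes by edgeR, with a median log2 fold change of -1.12, against -0.18 over the subunit and inhibitor genes. The 13 were Ccl2 (-2.41), Nos2 (-2.19), Il1a (-2.15), Cxcl10 (-1.97), Lcn2 (-1.93), Il6 (-1.89), Il1b (-1.69), Bcl2a1a (-1.34), Ccl4 (-1.13), Csf3 (-1.12), Ccl3 (-1.01), Cd40 (-1.01) and Bcl2l1 (-0.76), all as log2 fold changes against DMSO + LPS. They encode cytokines, chemokines, inducible nitric oxide synthase, a costimulatory receptor, survival proteins and the siderophore-binding protein lipocalin-2 (Lcn2). At an unadjusted p below 0.05, 16 targets were lower and 3 higher, against 22.2% of all genes in either direction. The 3 higher ones are named here after their values were seen. Their log2 fold changes were 0.49 for Icam1 (adjusted p = 0.00162, under the fold cutoff), 0.44 for Cxcl2 (adjusted p = 0.0634) and 0.39 for Ptgs2 (adjusted p = 0.0790). Bcl2a1a has near-identical copies that can share reads, and without replicate 2 of DMSO + LPS its adjusted p was 0.0621. At 10 µM 7 were called lower (0.579% of all genes were called lower), namely Ccl2, Nos2, Il1a, Cxcl10, Lcn2, Il6 and Il1b. Of these, Cxcl10, Il6 and Lcn2 lost the call without either DMSO + LPS library, with adjusted p between 0.0549 and 0.0878 and log2 fold changes between -0.99 and -0.74, against -0.96 (Il6), -0.94 (Lcn2) and -0.75 (Cxcl10) with all libraries. On the 4 libraries compared, those of Cxcl10 and Lcn2 were 0.0946 and 0.0827. Without replicate 1 at both 10 and 3.2 µM, the adjusted p of Il6 and Nos2 were 0.126 and 0.0607, at log2 fold changes of -0.85 and -0.86 against -0.96 and -0.89 with them. At 3.2 µM both tools called 0, where 4 had an unadjusted p below 0.05, 1 higher and 3 lower. Over all genes 600 of the 14172 tested passed that cutoff.

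**Figure D5:**
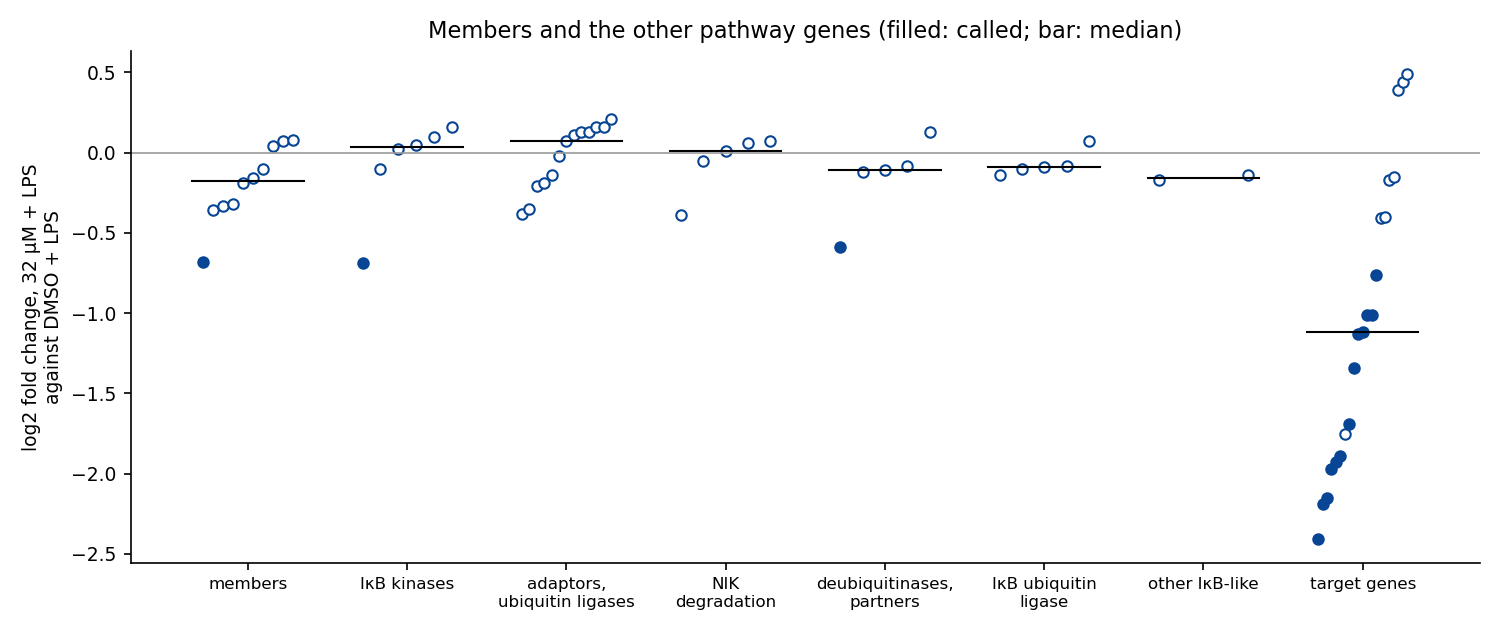
Log2 fold change at 32 µM of **1** with LPS against DMSO + LPS for the 10 subunit and inhibitor genes and for the lists of other pathway genes (1 point per gene, filled where called, bar at the median). The medians lie at -0.18 for the 10 genes and at -1.12 for the target genes, with 1 of 10 and 13 of 21 points filled.

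For each of the 10, the gene with the most similar course over the 10 libraries was sought among 9533 genes outside the 10 with a mean of at least 5 CPM, by the root mean square difference of log2 CPM after centering each gene. The nearest of these were Rffl for Nfkb1 (0.0525), Rab11fip1 for Nfkb2 (0.0657), Tmem214 for Rela (0.0309), Zbtb32 for both Relb (0.0768) and Bcl3 (0.0642), and P2ry10b for Rel (0.0703). They were Slc11a2 for Nfkbia (0.10), Rhoc for Nfkbib (0.0573) and Stx11 for Nfkbie (0.0513). Nfkbiz had no close match, since its nearest gene, Tnfrsf1b, lay at 0.198. Within the 10, Nfkb2 and Nfkbie were the closest pair, at 0.0470, nearer to each other than either was to a gene outside the 10. The libraries share their conditions, so this likeness is a description of the profiles.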

How the data were processed

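RNA-seq was analyzed from 10 libraries of RAW264.7 cells, 2 per condition. The authors made stranded poly(A) libraries from RNA with a RIN of 10, sequenced them on 1 lane and deposited raw counts per Ensembl gene without normalization. The submitters' processing notes name Trimmomatic, FastQC, STAR and DESeq2 and the build mm10. The counting tool, its strand setting and the annotation are not given in the sources used here. Symbols, positions and lengths came from GENCODE M21 (GRCm38).

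The 14172 genes kept by filterByExpr (minimum count 10) were scaled by TMM and fitted in edgeR 4.0.16 (R 4.3.3) over all 10 libraries with 1 mean per condition and 5 residual degrees of freedom. Quasi-likelihood F tests were adjusted by Benjamini-Hochberg over all genes tested, and intervals cover 95%. Totals lay between 45966803 and 58976377 counts, which bound counting error only. The steps were tested on simulated data.

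Alternatives were DESeq2 1.42.0, its size factors, library totals, other count filters, 4 libraries alone, the replicate number as a block, no fold cutoff, another length and leaving out each library. Leaving out 2 libraries together was chosen after seeing the data. The genes and lists were chosen with earlier results of these data known. Named genes were the 10 themselves, listed genes called at a dose, the 3 listed genes with the largest LPS change among those called, and the gene nearest to each of the 10, with a mean of at least 5 CPM. Icam1, Cxcl2 and Ptgs2 were named outside this rule, after their values were seen.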

Additional observations from a re-analysis of the deposited data

How the results depend on the processing

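The counts of the 10 genes called in each of the 7 comparisons were the same under every alternative except the absence of a fold cutoff, which gave 3 genes at 32 µM and 1 at 10 µM, in place of 1 and 0, and 10 in place of 9 for LPS and for 32 µM against DMSO. With the replicate number as a block in the fit, the counts were 9 for LPS and 1 at 32 µM, as without it. The adjusted p of Nfkbib at 32 µM was then 0.0422. The numbers were not taken as pairs, since the labels tie them to no shared day. The deviations of same-numbered libraries from their condition means correlated between -0.17 and 0.57 over 10 pairs of conditions. Per kb, the use of the longest transcript in place of the merged exons moved Nfkb1 above Nfkb2 in DMSO + LPS but not at 32 µM.

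Of 700 values with 1 library left out, 17 changed sign and 683 kept their direction, and none gained or lost a call by p and fold together. At the adjusted p alone, some crossed 0.05, among them Nfkb1, Nfkbia, Nfkb2 and Nfkbib at 32 µM and Nfkbiz at 10 µM. The remaining settings changed the sign of 3 of 490, and leaving out replicate 1 at both 10 and 3.2 µM, chosen after seeing the data, of 6 of 70. None of these values was called. All are log2 fold changes, the widest those of Rel. With 1 library left out, Relb at 32 µM lay between -0.0041 and 0.091. Against DMSO + LPS at 10 µM, Rela lay between -0.0442 and 0.0488, Relb between -0.0864 and 0.00872 and Rel between -0.414 and 0.0369. At 3.2 µM Rel lay between -0.117 and 0.0265, Nfkbia between -0.101 and 0.00998 and Bcl3 between -0.0374 and 0.0744. Between 32 and 10 µM Rel lay between -0.224 and 0.211, Nfkbib between -0.193 and 0.0296 and Bcl3 between -0.222 and 0.0505. Between 10 and 3.2 µM Rel lay between -0.355 and 0.0836 and Nfkbie between -0.0291 and 0.0209. Rela at 10 µM was -0.00659 without a count filter, and Nfkbie between 10 and 3.2 µM was 0.0187 with library totals and 0.00342 at a mean of at least 5 CPM. Without both of the libraries named above, Rela at 10 µM was -0.0442 and Rel 0.037, Bcl3 at 3.2 µM was -0.00888, Nfkbib and Bcl3 between 32 and 10 µM were 0.0296 and 0.0506, and Rel between 10 and 3.2 µM was 0.1. The cause was not tested. The lowest count of the 10 genes was 334, and each condition had 2 libraries. The part of depth or of the number of libraries in the width of the intervals was not tested.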
